A study of Arabidopsis thaliana with 9 samples.

Results

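Inflorescences of Arabidopsis thaliana that had been treated for 2 h with cycloheximide were compared with untreated inflorescences by mRNA sequencing. Of 33871 loci in the deposited expression table, 19569 had a complete quantification in all 9 libraries of the study and a mean of at least 1 FPKM (fragments per kilobase of transcript, scaled to the mapped total of the library), and these loci make up the comparison. Left out were 77 loci whose status was not OK throughout and 14225 with a mean below the minimum. Just inside the minimum lay AT1G78400 and BAS, with means of 1.0008 and 1.0035 FPKM, and just outside lay AT3G23510 and AT5G02070, with 0.9991 and 0.9993.

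All plants, untreated ones included, were of 1 genotype, 35S:AP1-GR ap1,cal, grown in soil at 22 °C in long days and harvested at 5 weeks. In ap1 cal double mutants the inflorescence apex makes meristem upon meristem in place of flowers, and AP1-GR is the MADS-domain factor APETALA1 joined to the hormone-binding domain of a glucocorticoid receptor, driven in most tissues by the viral 35S promoter. Dexamethasone, the ligand of that receptor, was absent from both groups compared. The untreated and the cycloheximide group each had 3 libraries, called biological replicates in the labels, and 3 further libraries from dexamethasone plus cycloheximide entered the fit only to estimate the spread. The labels describe no solvent control, so the handling of treated plants and the compound itself cannot be told apart.

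Cycloheximide binds the large ribosomal subunit and stops the elongation step of translation. Transcripts can still be made and degraded while proteins are not renewed, so genes held down by short-lived repressors, or whose mRNAs decay only while they are translated, are known to accumulate mRNA under the drug; this is called superinduction. In plants the drug is used to ask which genes respond to a transcription factor without new protein, and here it serves as the control for dexamethasone plus cycloheximide. The comparison with untreated tissue shows which mRNA levels differ in that control itself.

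Read totals are not known here, and relative depths can only be estimated from the steps between FPKM values. Among short loci of 1 fixed length, the smallest nonzero FPKM of a library divided 95% to 100% of its nonzero values with a whole result, within 0.02. If that smallest value stands for 1 read, a relative depth can be set to 1 for untreated replicate 2, which had the smallest step. It came to 0.49 and 0.627 for the other untreated libraries (replicates 1 and 3). For cycloheximide replicates 1 to 3 it came to 0.614, 0.649 and 0.559. These ratios measure depth only if all libraries divided such loci by the same length, which is not known here. Between replicates, log2(FPKM + 1) correlated across loci with r of 0.974 to 0.98 in untreated and 0.953 to 0.973 in treated tissue. The 3 cycloheximide libraries differed in the size of their response. Over the 2468 loci that rose by a log2 fold change of at least 1, the median difference from the untreated mean was 1.64, 2.02 and 2.31 in replicates 1, 2 and 3, and replicate 1 had the lowest of the 3 values at 2096 of them. Over the 841 loci that fell as much, the medians were -1.17, -1.23 and -1.40.

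More than every second tested locus differed between treated and untreated tissue. At an adjusted p under 0.05 (limma, Benjamini-Hochberg), 10712 loci differed from untreated tissue, which is 54.7% of those tested: 5193 rose (26.5%) and 5519 fell (28.2%). The rises were larger. A log2 fold change of at least 1, on the scale of log2(FPKM + 1) used throughout, was reached by 2468 rises (12.6%) and 841 falls (4.3%), one of at least 3 by 699 rises and 10 falls, and one of at least 5 by 216 rises and no fall. Of the 2468 rises, 689 were at loci with an untreated mean below 1 FPKM. Such loci could enter only through treated libraries, and none was called lower. At 1 to 10 FPKM untreated, 921 loci rose and 167 fell by at least 1. At 10 to 100 FPKM the counts were 781 and 418. They were 70 and 215 at 100 to 1000 FPKM, and 7 and 41 at higher levels. The excess of such rises was thus limited to untreated means below 100 FPKM. The 3 libraries of one group lay wholly above those of the other at 64.1% of loci, 30.5% with cycloheximide higher and 33.6% with it lower. The balance of rises and falls depends on the scale. After each library was rescaled to the same FPKM sum over loci of at least 300 bp, the median log2 fold change of all loci moved from -0.05 to -0.21 and the calls became 3828 rises and 7525 falls; with median-ratio scaling they were 5556 and 5071. In bulk tissue fewer cells of a type and less RNA per cell cannot be told apart.

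The shares of rises and falls differed with the level in untreated tissue. That level also enters the fold change, and loci of low level have less room to fall on the log2(FPKM + 1) scale. Part of the trend is therefore built in, and how large a part was not tested. Among 1029 loci with an untreated mean below 1 FPKM, 821 rose and none fell, but such loci could enter only through their treated libraries, so this count is no result. Of 5432 loci with an untreated mean of 1 to 10 FPKM, 34.1% rose and 15.9% fell. At 10 to 100 FPKM 21.5% of 11137 loci rose and 32.0% fell, and at 100 to 1000 FPKM only 6.84% of 1651 rose while 61.8% fell. Above 1000 FPKM, where short loci are common, 22.8% of 320 fell. A total of 235 loci were below 1 FPKM in every untreated library and above 5 in every treated one, and 2 loci showed the reverse.

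**Figure D1:**
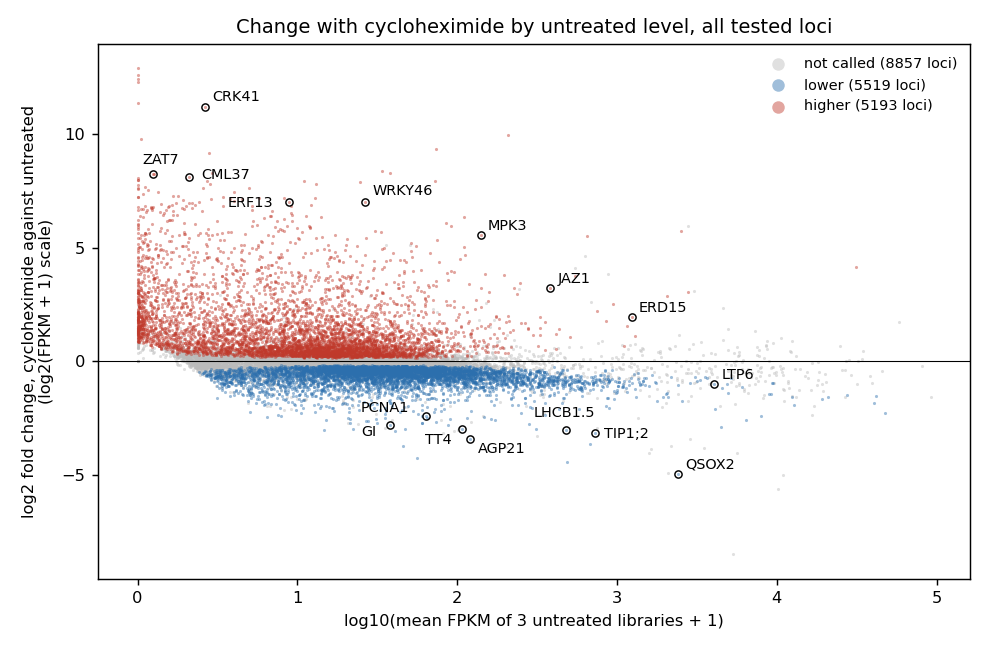
Log2 fold change with cycloheximide (vertical axis, log2(FPKM + 1) scale) against log10 of the mean untreated FPKM plus 1 (horizontal axis) for 19569 loci, with 5193 rises in red, 5519 falls in blue, uncalled loci in grey and 16 named genes circled. Rises reach beyond 10 and are spread over low and moderate levels, whereas falls are smaller. Of the falls 3560 lie at an untreated mean of 10 to 100 FPKM, beside 2396 rises, and 1020 at 100 to 1000 FPKM, beside 113 rises.

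The largest rise at a gene with a primary symbol in RefSeq was that of CRK41 (AT4G00970, chr4:418400-421835), a cysteine-rich receptor-like kinase. Untreated replicates 1, 2 and 3 had 1.28, 1.77 and 1.89 FPKM and the cycloheximide replicates had 2109, 8305 and 13854, a log2 fold change of 11.21 ± 0.80 (limma, adjusted p = 1.28e-05). All treated libraries lay far above the untreated ones, but they also differed several-fold from each other.

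ZAT7 (AT3G46090, chr3:16926216-16926850), a zinc finger repressor with an EAR motif, had 0.359, 0.249 and 0.165 FPKM untreated and 279, 352 and 555 with cycloheximide (8.24 ± 0.25, adjusted p = 2.45e-07). CML37 (AT5G42380, chr5:16942576-16943366), a calmodulin-like calcium sensor, had 0.895, 0.912 and 1.47 FPKM before and 479, 568 and 725 after treatment (8.13 ± 0.18, adjusted p = 9.3e-08). SARD1 (AT1G73805, chr1:27745427-27749204) encodes a calmodulin-binding-protein relative that activates salicylate synthesis, and had 2.97, 2.19 and 6.7 FPKM against 751, 925 and 1098 (7.64 ± 0.30, adjusted p = 6.78e-07). In each of these genes the groups lay more than 100-fold apart and did not overlap. Four-digit levels were reached from a low base by ZAT10 (AT1G27730, chr1:9648141-9649073), the salt tolerance zinc finger, with 12.3, 11.7 and 11.6 FPKM untreated and 1457, 1959.6 and 2289 treated (7.18 ± 0.17, adjusted p = 1e-07).

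WRKY46 (AT2G46400, chr2:19043414-19044826), a WRKY factor of defence and drought responses, had 22.8, 20 and 33.6 FPKM untreated and 2969.6, 3492 and 3689 treated (7.03 ± 0.21, adjusted p = 1.98e-07). ERF13 (AT2G44840, chr2:18495341-18496272), an ethylene response factor, had 8.4, 7.24 and 8.04 and 993, 1309 and 1193 FPKM (7.03 ± 0.12, adjusted p = 6.85e-08). Both had tight replicates and non-overlapping groups. The others among the 15 largest rises were BHLH92, a helix-loop-helix factor (7.62), BAP2, a membrane-bound inhibitor of cell death (7.54), the glutathione transferase GSTU11 (7.46), the auxin-conjugating enzyme GH3.1 (7.39), PBP1, a calcium-binding partner of the PINOID kinase (7.15), the wall enzyme relative GATL10 (7.13), XBAT34 (7.08) and the syntaxin SYP122 (7.03). Of all 50 called rises at least as large as the smallest of these 15, 17 were at genes without a symbol and 18 at loci that name no single gene.

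By mean FPKM over all 9 libraries, CML12, MPK3, ERD15, JAZ1 and CRK41 were the most abundant rises among genes with a primary symbol. CML12 (AT2G41100, chr2:17137829-17139612), the touch-induced calcium sensor also known as TCH3, rose from 89, 66.9 and 171 FPKM to 6555, 8604 and 10308 (6.36 ± 0.35, adjusted p = 3.18e-06). The mitogen-activated kinase MPK3 (AT3G45640, chr3:16756770-16758698) had 99.5, 91.9 and 227 FPKM untreated and 5009, 6137 and 7479 treated (5.57 ± 0.34, adjusted p = 6.06e-06). In both genes untreated replicate 3 was about 2 times the other untreated libraries and still far below every treated one. ERD15, a small dehydration-induced protein, was already abundant at 1081, 1030.1 and 1582 FPKM and reached 3993, 4708 and 5420.3 (1.95 ± 0.25, adjusted p = 0.000322).

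**Figure D2:**
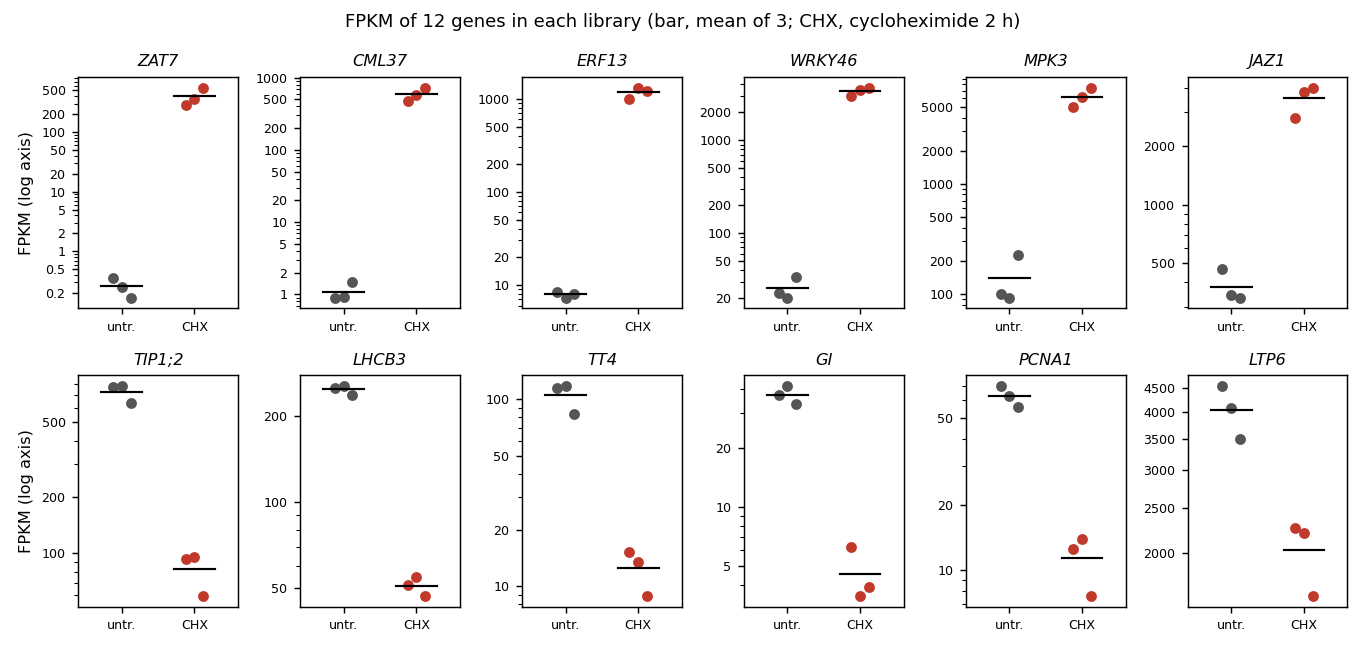
FPKM (log axis) of 12 genes in each of the 3 untreated (grey) and 3 cycloheximide (red) libraries, with bars for the group means. In every panel the groups do not overlap: ZAT7, CML37, ERF13, WRKY46, MPK3 and JAZ1 were higher with cycloheximide, and TIP1;2, LHCB3, TT4, GI, PCNA1 and LTP6 lower.

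Families of stress-induced transcription factors rose together. All 8 ZAT and AZF genes, C2H2 zinc finger proteins that repress transcription, were tested and called higher, with log2 fold changes of 3.11 (AZF3) to 8.24 (ZAT7) and a median of 5.39, beside a median of -0.05 over all loci tested. ZAT7, ZAT11, AZF1 and AZF3 were below 1 FPKM in untreated tissue and entered only through treated libraries, so they could only be called higher; the other 4, ZAT10, ZAT12, AZF2 and ZAT6, all rose. Of 55 ERF and DREB genes, whose products bind ethylene- and drought-response elements, 43 were tested, 35 rose and 3 fell, with a median of 2.01; of the 32 with at least 1 FPKM in untreated tissue 25 rose and 3 fell, with a median of 1.83. Besides ERF13 the most precise rises in this family were ERF2 from 4.19 ± 1.03 to 589 ± 35.4 FPKM (SD, n = 3; 6.85 ± 0.15), ERF5 from 11.1 ± 2.74 to 727 ± 74.9 FPKM (5.93 ± 0.16) and ERF-1 (AT4G17500) from 14.5 ± 1.98 to 546 ± 55.1 FPKM (5.14 ± 0.13). The adjusted p values were 9.3e-08, 1.48e-07 and 1e-07 (limma).

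The WRKY family binds the W-box of defence gene promoters. A total of 54 of its 71 genes were tested, 42 rose and 2 fell, with a median of 1.10, and 29 rose by 1 or more on the log2 scale. Of the 40 with at least 1 FPKM in untreated tissue 29 rose and 2 fell, with a median of 0.78. WRKY40, which represses defence genes together with WRKY18, had 11.6, 10.7 and 11.2 FPKM untreated and 1094, 1615 and 1679.9 treated (6.89 ± 0.18, adjusted p = 1.4e-07). WRKY18 went from 109.6 ± 44.2 to 3557 ± 736 FPKM (5.06 ± 0.29) and WRKY51 from 4.35 ± 0.682 to 52.3 ± 6.33 FPKM (3.32 ± 0.18). In all 3 genes every treated library exceeded every untreated one. With the rescaling over loci of at least 300 bp 37 WRKY genes rose and 7 fell. Among 18 stress-related NAC factors 15 rose, with a median of 1.7 (10 of the 13 with at least 1 FPKM in untreated tissue, median 1.07): NAC036 had 0.745, 0.796 and 0.703 FPKM untreated and 152, 199 and 354 treated (6.99 ± 0.27), and ATAF2, NAC090 and NAC061 had log2 fold changes of 4.98, 4.14 and 3.94. The 1 NAC gene called lower, NAC047 (-1.02 ± 0.37; named after its values were seen), was not called when any 1 of 8 of the 9 libraries, all but cycloheximide replicate 3, was left out, or with median-ratio scaling.

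Most listed calcium sensor genes rose as well, and kinase signalling genes were more mixed. Of 14 listed calmodulin-like genes 9 were tested and 8 rose, CML11 being the exception (-0.08 ± 0.14, adjusted p = 0.649), and the median was 5.32. CML41 was below 1 FPKM in untreated tissue and could only be called higher. Among the 8 others 7 rose, with a median of 4.365. CML41, which acts in callose deposition at plasmodesmata, had 1.12, 0.497 and 0.288 FPKM untreated and 122, 191 and 295 treated (6.90 ± 0.35), and CML38 and CML23 had log2 fold changes of 5.68 ± 0.28 and 5.32 ± 0.25. In the list of MAP kinase cascade genes and their phosphatases 16 of 30 tested members rose, 4 fell and 10 were not called, with a median of 0.29. Only 7 of the rises reached a log2 fold change of at least 1. With the rescaling over loci of at least 300 bp 14 rose and 6 fell, with a median of 0.099. The falls were 2 without untreated replicate 1 or without cycloheximide replicate 2. The rises included the MAP kinase kinase MKK9 (17.2 ± 0.651 to 408 ± 50.9 FPKM, 4.49 ± 0.11), MPK11 (1.39 ± 0.552 to 49.4 ± 14.7 FPKM, 4.38 ± 0.22) and AP2C1, a phosphatase that inactivates MAP kinases (22.7 ± 1.55 to 323 ± 99.7 FPKM, 3.72 ± 0.23).

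Of 42 cysteine-rich receptor-like kinase genes 20 were below the minimum level, 9 had no locus of their own and 13 were tested, and 11 of these rose and 1, CRK42, fell (-0.80 ± 0.14; named after its values were seen). Over the 8 with at least 1 FPKM in untreated tissue 6 rose. CRK10 went from 14.9 ± 10.2 to 197 ± 51.6 FPKM (3.78 ± 0.40, adjusted p = 0.000116), while CRK39 was listed at 0 in all untreated libraries and at 1.99, 4.03 and 5.1 FPKM in the treated ones. Genes of salicylate synthesis and pathogen defence rose in 19 of 22 tested cases and fell in none, with a median of 2.49 (17 of the 20 with at least 1 FPKM in untreated tissue). The uncalled RBOHF, an NADPH oxidase gene named after its values were seen, had 7.46, 5.89 and 1869.9 FPKM untreated and 15.1, 8249 and 12276 treated, so that the summed level of the list was about as high in untreated replicate 3 (2111 FPKM) as in cycloheximide replicate 1 (2152). Next to SARD1 its relative CBP60G had 0.774, 0.797 and 1.99 FPKM untreated and 183, 291 and 371 treated (7.0 ± 0.29, adjusted p = 8.35e-07). The lipase-like immune regulators PAD4 and EDS1 went from 6.96 ± 0.6 to 191 ± 31.5 FPKM (4.58 ± 0.12) and from 9.09 ± 0.865 to 155 ± 27.8 FPKM (3.94 ± 0.15). The gene of the synthesis enzyme itself, ICS1, had 3.96, 3.84 and 5.28 and 3.05, 4.27 and 5.28 FPKM and was not called (-0.06 ± 0.23, adjusted p = 0.852; chosen after its values were seen).

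The jasmonate pathway rose at both its ends, the enzymes that make the hormone and the JAZ proteins that repress its response until the hormone triggers their degradation. Of 12 JAZ genes 11 were tested, 9 rose and none fell, with a median of 1.71. JAZ8 had 62.2, 47.2 and 41.8 FPKM untreated and 903, 1741 and 2092 treated (4.87 ± 0.32, adjusted p = 8.71e-06). JAZ1, the most abundant, had 467, 342 and 332 against 2798, 3827 and 4009.8 FPKM (3.22 ± 0.22, adjusted p = 1.12e-05). JAZ7 and JAZ5 had log2 fold changes of 4.46 ± 0.31 and 3.24 ± 0.22, JAZ10, JAZ2, JAZ6, JAZ3 and JAZ9 lay between 1.94 and 1.23, and JAZ12 (0.05 ± 0.12, adjusted p = 0.73) and JAZ11 (-0.10 ± 0.12, adjusted p = 0.509) were not called.

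Of 15 tested jasmonate synthesis genes 9 rose and 2 fell, and among the 14 with at least 1 FPKM in untreated tissue 8 rose and 2 fell. Over all 15, 4 fell with the rescaling. Only 1 fell with median-ratio scaling or when untreated replicate 1, untreated replicate 2 or cycloheximide replicate 1 was left out. The lipoxygenase LOX4 went from 19.2 ± 3.34 to 736 ± 238 FPKM (5.14 ± 0.28, adjusted p = 3.16e-06). Allene oxide synthase, AOS, had 34, 27.1 and 26.4 and 374, 658 and 592 FPKM (4.14 ± 0.22, adjusted p = 2.96e-06), and the cyclase AOC3 went from 91 ± 24.2 to 1461 ± 278 FPKM (4.01 ± 0.22). OPCL1 (AT1G20510, chr1:7103454-7105881), which activates the precursor for its last chain-shortening steps, had 51, 44.2 and 58.2 FPKM untreated and 982, 1439 and 1427 treated (4.61 ± 0.19, adjusted p = 8.35e-07). Inside this gene lies a separate locus of 101 bp, chr1:7104213-7104313, which had the highest FPKM of all tested loci in the treated libraries: 38849, 25892 and 29168 untreated and 466080, 598482 and 625587 with cycloheximide. The values of so short a locus are not comparable with those of whole genes.

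**Figure D3:**
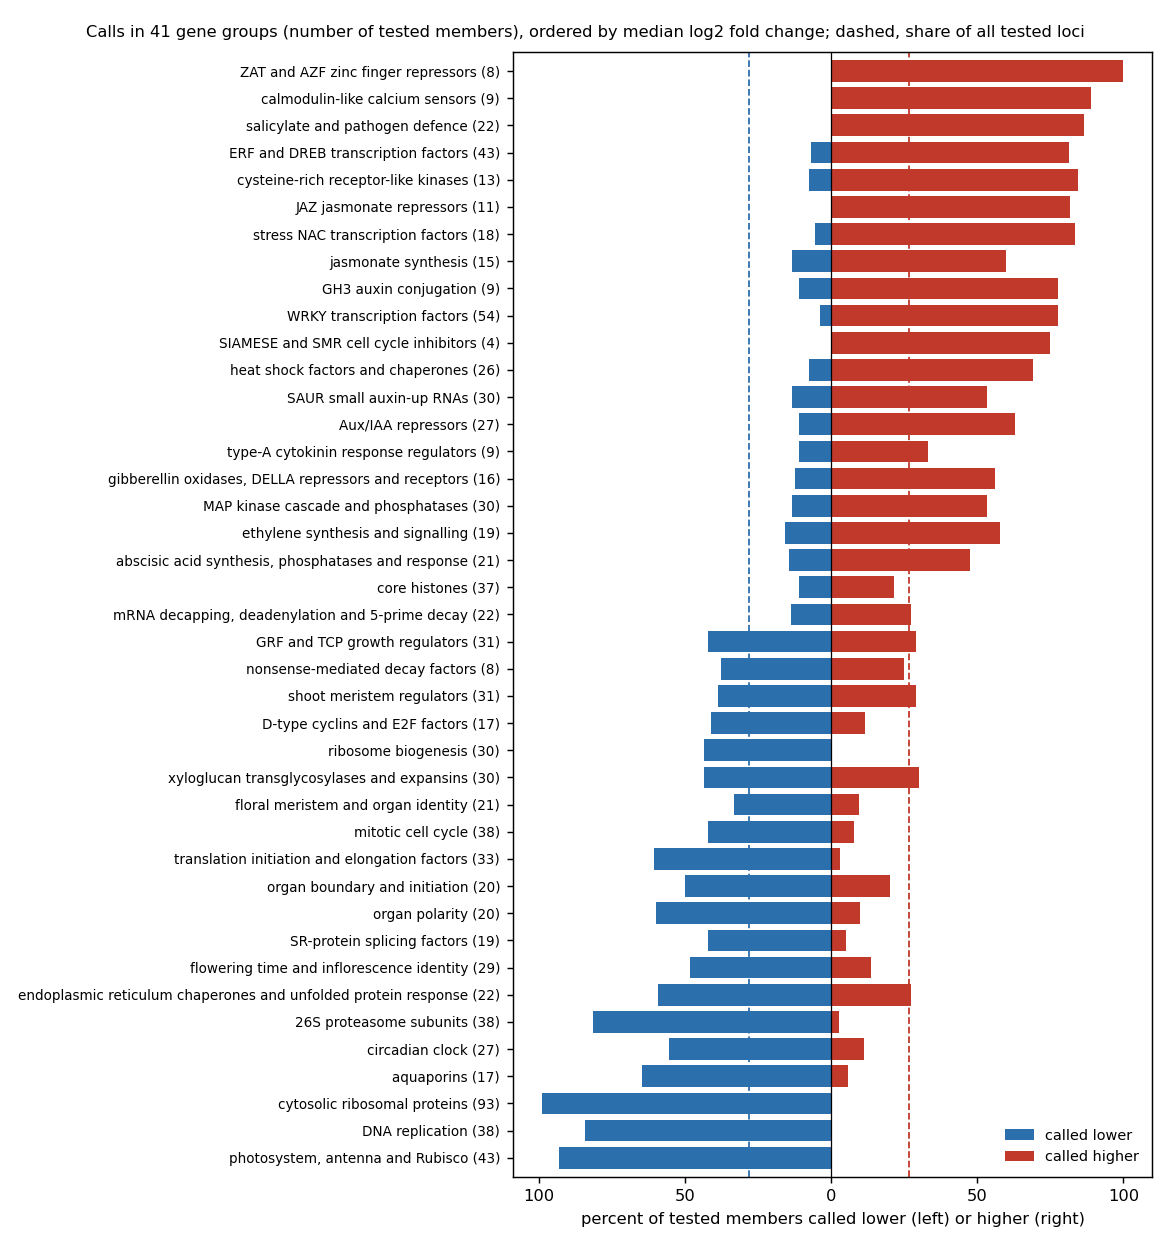
Percent of tested members called higher (red, right) or lower (blue, left) with cycloheximide in 41 gene groups, ordered by their median log2 fold change, with the number of tested members in parentheses. Dashed lines mark the shares over all tested loci, 26.5% higher and 28.2% lower; ZAT and AZF repressors stand at one end and photosystem, replication and ribosomal protein genes at the other.

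Primary auxin response genes are the classic targets of superinduction by cycloheximide, since the Aux/IAA proteins that repress them turn over quickly. Of 27 tested Aux/IAA genes 17 rose and 3 fell, with a median of 0.56, and with the rescaling 14 rose and 5 fell. Of the 24 with at least 1 FPKM in untreated tissue 14 rose and 3 fell. IAA1 had 1.57, 2.2 and 2.84 FPKM untreated and 51.6, 64.5 and 90.4 treated (4.43 ± 0.21, adjusted p = 1.58e-06), and IAA3 had 3.75, 4.09 and 7.02 and 92.2, 95.6 and 120.3 FPKM (4.15 ± 0.19, adjusted p = 1.46e-06). In both, each treated library was more than 10-fold above each untreated one. IAA30 and IAA29 rose by 3.13 ± 0.15 and 2.34 ± 0.14.

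GH3 enzymes conjugate auxin, jasmonate and other acids to amino acids. Of 9 tested members 7 rose, and GH3.9 fell (-0.57 ± 0.15, adjusted p = 0.0137), a call lost without untreated replicate 2 or cycloheximide replicate 3. GH3.1 was below 1 FPKM in untreated tissue and could only be called higher, and among the 8 others 6 rose and 1 fell. GH3.1 had 0.105, 0.106 and 0.0505 FPKM untreated and 99.9, 219 and 269 treated (7.39 ± 0.34, adjusted p = 1.35e-06), GH3.3 rose from 12.2 ± 1 to 414 ± 132 FPKM (4.92 ± 0.21) and GH3.2 from 5.5 ± 1.2 to 88.1 ± 19 FPKM (3.77 ± 0.19). Within the same family GH3.5 rose by 1.30 ± 0.14, and GH3.6 was not called (-0.22 ± 0.30, adjusted p = 0.555). The SAUR genes, small auxin-up RNAs that promote cell expansion, numbered 79, of which 37 were below the minimum, 12 had no locus of their own and 30 were tested, and 16 of the 30 rose while 4 fell (2 without untreated replicate 1 or cycloheximide replicate 2). Among the 26 with at least 1 FPKM in untreated tissue 13 rose and 4 fell. SAUR48 had 3.51, 4.09 and 4.98 FPKM untreated and 291, 311 and 358 treated (5.95 ± 0.14, adjusted p = 1e-07), and SAUR71 and SAUR41 rose by 3.92 ± 0.13 and 2.06 ± 0.09.

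Other hormone pathways held both rises and falls. Of 9 tested type-A response regulators, rapid cytokinin response genes that dampen the signal, 3 rose (33.3%), 1 fell (11.1%) and 5 were not called. Over all loci 26.5% rose and 28.2% fell. The rises were ARR5 (4.84 ± 1.65 to 72.7 ± 34.7 FPKM, 3.60 ± 0.32), ARR7 (60.2 ± 8.45 to 239.6 ± 48.8 FPKM, 1.96 ± 0.16) and ARR17 (1.79 ± 0.16), and ARR4 fell (-0.63 ± 0.15). ARR17 was below 1 FPKM in untreated tissue and could only be called higher, and among the 8 others 2 rose and 1 fell. Without cycloheximide replicate 1 the rises in the whole list were 5, and with the rescaling 2 fell. In the ethylene list 11 of 19 tested genes rose and 3 fell, and of the 14 with at least 1 FPKM in untreated tissue 6 rose; with the rescaling 7 of the 19 rose and 5 fell. Its largest changes were in the rate-limiting synthases: ACS2 had 0.0726, 0.115 and 0.0216 FPKM untreated and 9.72, 28.7 and 40.9 treated (4.47 ± 0.49), ACS6 had 8.35, 10.1 and 23 and 109.7, 154 and 257 (3.60 ± 0.40), and ACS8 rose by 4.50 ± 0.31. With the rescaling over loci of at least 300 bp 7 ethylene genes rose and 5 fell.

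Of 16 tested gibberellin genes 9 rose and 2 fell (1 without untreated replicate 1 or 2 or cycloheximide replicate 2 or 3). Among the 14 with at least 1 FPKM in untreated tissue 8 rose and 2 fell. The rises included the inactivating oxidase GA2OX2 (1.25 ± 0.10), the DELLA repressors RGL3 (2.10 ± 0.22) and RGL1 (0.86 ± 0.13) and the receptor GID1C (0.71 ± 0.07). Of 21 abscisic acid genes 10 rose and 3 fell, and the falls were 5 without cycloheximide replicate 3 and 7 with the rescaling. Among the 19 with at least 1 FPKM in untreated tissue 8 rose and 3 fell. CYP707A3, which breaks the hormone down, rose from 9.23 ± 10.6 to 321 ± 117 FPKM (5.41 ± 0.63), the synthesis gene NCED3 by 1.81 ± 0.28 and the phosphatase ABI1 by 1.18 ± 0.08.

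A few regulators of mRNA turnover were among the large rises. In the list of decapping, deadenylation and decay factors 6 of 22 genes rose (27.3%) and 3 fell (13.6%), beside 26.5% and 28.2% of all loci, and with the rescaling 7 fell and the median of 0.01 turned to -0.17. CAF1a (AT3G44260, chr3:15952045-15953084), a stress-induced deadenylase that shortens poly(A) tails, had 5.51, 5.82 and 8.15 FPKM untreated and 418, 530.3 and 703 treated (6.19 ± 0.21, adjusted p = 3.64e-07). Its relative CAF1b had 3.45, 3.4 and 4.05 and 114, 169.8 and 208 FPKM (5.11 ± 0.22, adjusted p = 9.84e-07). The tandem zinc finger genes SZF1 and SZF2 rose by 5.10 ± 0.36 and 4.16 ± 0.20. Of 8 factors of nonsense-mediated decay, the pathway that removes transcripts with early stop codons and needs translation, the core helicase gene UPF1 had 36.2, 35.9 and 39.3 FPKM untreated and 39.5, 43.9 and 41.6 treated and was not called (0.16 ± 0.07, adjusted p = 0.0932). UPF3, another core factor, rose by 0.25 ± 0.07, but it was not called with the rescaling (adjusted p = 0.656) or without untreated replicate 2 (adjusted p = 0.0689). The exon junction partners MAGO and Y14 fell, with log2 fold changes of -0.46 and -0.54. Of 19 SR splicing factors 8 fell (42.1%, beside 28.2% of all loci), among them SR45a (-0.98 ± 0.14) and SCL33 (-0.63 ± 0.11). RS31A alone rose (0.41 ± 0.07), a call not made with the rescaling, and with median-ratio scaling 2 rose. The falls were 5 without untreated replicate 1, untreated replicate 2 or cycloheximide replicate 3 and 4 without cycloheximide replicate 2.

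Most listed genes of heat shock factors and cytosolic chaperones rose, and most listed folding and stress genes of the endoplasmic reticulum fell. The first count does not separate the factors from the chaperones. In the list of heat shock factors and cytosolic chaperones 18 of 26 tested genes rose and 2 fell (1 without untreated replicate 1 or cycloheximide replicate 2). Among the 23 with at least 1 FPKM in untreated tissue 16 rose and 2 fell. The rises were led by the factors: HSFB2A had 8.17, 7.45 and 12.1 FPKM untreated and 135, 159 and 154 treated (3.90 ± 0.16, adjusted p = 7.07e-07), HSFB2B and HSFA8 rose by 2.34 ± 0.08 and 2.01 ± 0.16, and HSFA7B was listed at 0 in every untreated library and at 5.96, 7.07 and 8.84 FPKM in the treated ones. In the endoplasmic reticulum 13 of 22 tested genes fell (59.1%) and 6 rose (27.3%), beside 28.2% and 26.5% of all loci, with a median of -0.43. With the rescaling 3 rose. Calnexin, CNX1, which folds glycoproteins, had 160.3, 154 and 159.8 FPKM untreated and 73, 64.1 and 52.6 treated (-1.32 ± 0.13, adjusted p = 7.29e-05). The HSP90 relative SHD (-1.03 ± 0.12) and the cochaperone ERDJ3B (-0.97 ± 0.11) fell too, whereas BZIP28, a membrane-tethered factor of the unfolded protein response, rose from 36.7 ± 3.75 to 70.8 ± 5.6 FPKM (0.93 ± 0.11).

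The falls were smaller and reached genes of growth, light harvesting and the cell surface. The largest at a gene with a primary symbol in RefSeq was that of QSOX2, a sulfhydryl oxidase, with 2857, 2171 and 2164 FPKM untreated and 728, 24.3 and 22.7 treated (-4.97 ± 1.66, adjusted p = 0.0332). Cycloheximide replicate 1 lay far above the other treated libraries, and the call was lost without any 1 of the untreated replicates (adjusted p = 0.0825, 0.0754 and 0.0701) or without cycloheximide replicate 2 or 3 (0.106 and 0.111).

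The next falls were alike in all 3 treated libraries. AGP21 (AT1G55330, chr1:20648465-20648891), an arabinogalactan peptide of the cell surface, had 109.95, 124 and 126 FPKM untreated and 11.2, 11.8 and 8.56 treated (-3.40 ± 0.20, adjusted p = 4.57e-06). TIP1;2 (AT3G26520, chr3:9722443-9723815), a water channel of the vacuole membrane, had 773, 782 and 633 and 93.9, 95.4 and 59.1 FPKM (-3.15 ± 0.19, adjusted p = 4.96e-06). TT4 (AT5G13930, chr5:4488688-4490264), chalcone synthase, the first enzyme of flavonoid synthesis, had 115, 118 and 82.9 FPKM untreated and 15.1, 13.5 and 8.82 treated (-2.99 ± 0.20, adjusted p = 9.76e-06). In each of these 3 genes every treated library lay more than 5-fold below every untreated one. The remaining genes of the 15 largest falls under this limit, which leaves out names that RefSeq holds only as synonyms, such as LNK1, were the antenna genes LHCB1.5 (-3.01), LHCB1.4 (-2.26) and LHCB3 (-2.26), GI (-2.81), the extensin-like ELP (-2.58), the lipid transfer protein LTP3 (-2.55), the glucosinolate enzyme CYP83A1 (-2.51), the thionin THI2.1 (-2.48), PCNA1 (-2.40), the wall enzyme XTH7 (-2.39) and MLP423 (-2.35). The LHCB1 copies are near-identical neighbours, so the split of reads between them is uncertain.

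Among genes with a primary symbol the 5 most abundant falls, by mean FPKM over all 9 libraries, were those of LTP6, MT2A, MT3, RBCS1A and LCR69. LTP6, a lipid transfer protein, had 4544, 4078 and 3509 FPKM untreated and 2258, 2210.2 and 1617 treated (-1.0 ± 0.22, adjusted p = 0.00488), and RBCS1A, the small subunit of Rubisco, had 3184, 3154 and 2898 and 1861, 1860.3 and 1979 (-0.70 ± 0.19, adjusted p = 0.016). Neither pair of groups overlapped, though RBCS1A was not called without untreated replicate 2 (adjusted p = 0.0521). The metallothioneins MT2A (-0.72 ± 0.26) and MT3 (-0.83 ± 0.28) and the defensin-like LCR69 (-0.96 ± 0.26) followed. Without untreated replicate 2 none of these 3 was called (adjusted p = 0.135, 0.101 and 0.0501), MT3 was not called without untreated replicate 1 or cycloheximide replicate 2 or 3 either (0.096, 0.0894 and 0.105), and MT2A was not called without any 1 of 8 of the 9 libraries, all but cycloheximide replicate 1.

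Genes of the translation apparatus, the target of the drug, were lower as a class. Of 104 cytosolic ribosomal protein genes 93 were tested and 92 fell, none rose, and in all 93 the 3 treated libraries lay below the 3 untreated ones. The median log2 fold change was -0.90 and the range was narrow, -1.40 to -0.52. The 1 uncalled member, AT3G28900, named after its values were seen, had 525, 710.3 and 598 FPKM untreated and 472, 499.8 and 322 treated (-0.52 ± 0.22, adjusted p = 0.0761). Summed over the 93 genes the level was 42579 to 47925 FPKM in the untreated libraries and 20711 to 29389 with cycloheximide. Of all tested loci with 100 to 1000 FPKM in untreated tissue, 61.8% fell. Among the members, AT3G53890 had 592, 595 and 522 FPKM untreated and 282, 263 and 217 treated (-1.17 ± 0.13, adjusted p = 0.00013), and RPL23AB had 405, 395 and 354 and 239, 218 and 200.5 (-0.81 ± 0.10, adjusted p = 0.000281). Ribosomal proteins are encoded by near-identical gene pairs, so reads may be split between copies.

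Ribosome assembly and translation factors also held more falls than rises. Over all tested loci 28.2% fell and 26.5% rose, and at 10 to 100 FPKM in untreated tissue 32.0% fell and 21.5% rose. Of 30 tested ribosome biogenesis genes 13 fell (43.3%) and none rose (median -0.17). The falls were 8 without untreated replicate 2 or 3 or cycloheximide replicate 2, 7 without cycloheximide replicate 3 and 8 with median-ratio scaling. NOP10, of the RNA-modifying box H/ACA particles, went from 472 ± 19.7 to 224 ± 38.6 FPKM (-1.08 ± 0.13), the nucleolin NUC-L1 from 255 ± 4.99 to 132 ± 18.7 FPKM (-0.96 ± 0.11), and NOP56 and CBF5 had log2 fold changes of -0.82 ± 0.11 and -0.57 ± 0.08. Of 33 translation factors 20 fell (60.6%) and 1 rose (3.03%). The falls were 12 without untreated replicate 2 and 13 without cycloheximide replicate 3. The rises were 2 without cycloheximide replicate 1, without replicate 1 or 2 of dexamethasone plus cycloheximide, or with median-ratio scaling. With the rescaling the rises were 0. FBR12, which encodes a form of the translation factor eIF5A, had 1059.7, 1124 and 1029 FPKM untreated and 604, 496 and 398 treated (-1.12 ± 0.16, adjusted p = 0.000597). The cap-binding EIF4E (-0.52 ± 0.08), the helicase EIF4A-2 (-0.60 ± 0.08) and the poly(A)-binding PAB2 (-0.73 ± 0.11) fell by less. In the 26S proteasome 31 of 38 tested subunit genes fell (81.6%), with log2 fold changes of -0.83 at PAF2 and -0.70 at RPT3. The 1 rise (2.63%) was that of RPN12B, a second copy of a lid subunit, from 2.83 ± 0.397 to 20.4 ± 2.29 FPKM (2.48 ± 0.12, adjusted p = 2.01e-06). With median-ratio scaling 3 proteasome genes rose.

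Nuclear genes of photosynthesis fell almost throughout. Of 49 photosystem, antenna and Rubisco genes 43 were tested and 40 fell, with none higher and a median of -1.06, and 24 fell by 1 or more on the log2 scale. Summed over the 43 genes the level was 13904 to 15161 FPKM in the untreated libraries and 6969.6 to 7257 with cycloheximide. LHCB3 (AT5G54270, chr5:22038273-22039568), an antenna protein of photosystem II, had 251, 255 and 238 FPKM untreated and 51.5, 54.6 and 46.9 treated (-2.26 ± 0.09, adjusted p = 6.61e-07), and LHCA1, of the photosystem I antenna, had 247, 241 and 225 and 63.7, 61.9 and 59.1 (-1.93 ± 0.08, adjusted p = 6.47e-07). In both genes every treated library lay more than 3-fold below every untreated one. LHCA4 and LHCA3 fell, with log2 fold changes of -1.85 ± 0.09 and -1.45 ± 0.08.

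Aquaporins, which carry water across membranes during cell expansion, fell in 11 of 17 tested cases, with a median of -0.62. After TIP1;2 came TIP1;1 (457 ± 57.8 to 151 ± 27.4 FPKM, -1.60 ± 0.17), TIP2;1 (158 ± 12.4 to 63.5 ± 13.5 FPKM, -1.32 ± 0.15) and TIP2;2 (-0.98 ± 0.15), all of the vacuole membrane. A single aquaporin was called higher, PIP2;3 (1.38 ± 0.42; named after its values were seen), and this call was not made without untreated replicate 3 or cycloheximide replicate 2 or 3, while 2 were called without untreated replicate 1 or with median-ratio scaling. Of 30 tested wall-loosening genes, the xyloglucan transglycosylases and expansins, 9 rose (30.0%) and 13 fell (43.3%), beside 26.5% and 28.2% of all loci. XTH22, the touch-induced TCH4, rose from 73.3 ± 45.7 to 2788 ± 660.5 FPKM (5.37 ± 0.38) and XTH23 from 1.21 ± 0.445 to 41.9 ± 15.2 FPKM (4.23 ± 0.27), whereas XTH6 fell from 218 ± 16.9 to 70.1 ± 13.8 FPKM (-1.64 ± 0.14) and XTH7 from 6.95 ± 1.65 to 0.495 ± 0.109 FPKM (-2.39 ± 0.17).

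Genes of DNA replication fell. Of 41 replication genes 38 were tested, 32 fell and none rose, with a median of -0.96. PCNA1 (AT1G07370, chr1:2263140-2264551), the sliding clamp of DNA polymerases, had 69.8, 62.8 and 55.7 FPKM untreated and 12.5, 13.9 and 7.6 treated (-2.40 ± 0.19, adjusted p = 2.26e-05). Its paralog PCNA2 had 50.3, 48.3 and 45.9 and 13.9, 12.8 and 8.98 FPKM (-1.95 ± 0.14, adjusted p = 1.3e-05), and the helicase subunit MCM2 had 35.1, 35.4 and 35 and 16.1, 17.5 and 14.5 (-1.09 ± 0.07, adjusted p = 1.05e-05). All 3 fell below every untreated library. The single-strand binding subunit RPA1B (-1.63 ± 0.12) and the origin factor MCM10 (-1.23 ± 0.09) fell as well.

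Core histone genes were mostly not called: 8 of 37 rose (21.6%), 4 fell (10.8%) and 25 were not called. Over all loci 26.5% rose and 28.2% fell. The median of the histone genes, 0.06, became -0.13 with the rescaling. Among the 36 with at least 1 FPKM in untreated tissue, which leave out AT1G13370, 7 rose and 4 fell. The list was not limited to histones of S phase and includes the variant H3.3, which rose (0.53 ± 0.12). HTA7 rose from 65 ± 5.16 to 116 ± 9.85 FPKM (0.82 ± 0.09) and the histone genes AT1G13370, AT5G02570 and AT3G09480 by 2.69, 1.42 and 1.18. Of 38 mitotic genes 16 fell (42.1%) and 3 rose (7.89%), with 10 falls without untreated replicate 2. The Aurora kinase AUR2 (-0.81 ± 0.10) and the cyclin CYCA1;1 (-0.65 ± 0.11) fell, while the kinase inhibitor KRP6 rose from 9.33 ± 2.03 to 29 ± 3.87 FPKM (1.55 ± 0.18). Among D-type cyclins, E2F factors and RBR1, which gate entry into S phase, 7 of 17 fell (41.2%) and 2 rose (11.8%). The falls included CYCD1;1 (-1.0 ± 0.10), the E2F-like repressor DEL1 (-0.90 ± 0.14) and RBR1 (-0.69 ± 0.10). The SIAMESE family inhibits cyclin-dependent kinases. Its member SMR5 had 3.73, 3.22 and 4.96 FPKM untreated and 97.8, 137 and 172 treated (4.76 ± 0.24, adjusted p = 2.01e-06), SMR1 rose by 1.49 ± 0.13, and SIM itself was not called (-0.01 ± 0.18, adjusted p = 0.964). SMR4 was called (0.38 ± 0.11) but not without untreated replicate 1 or 2, without cycloheximide replicate 2 or 3, or with the rescaling (adjusted p = 0.0656, 0.0813, 0.0606, 0.0545 and 0.135).

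**Figure D4:**
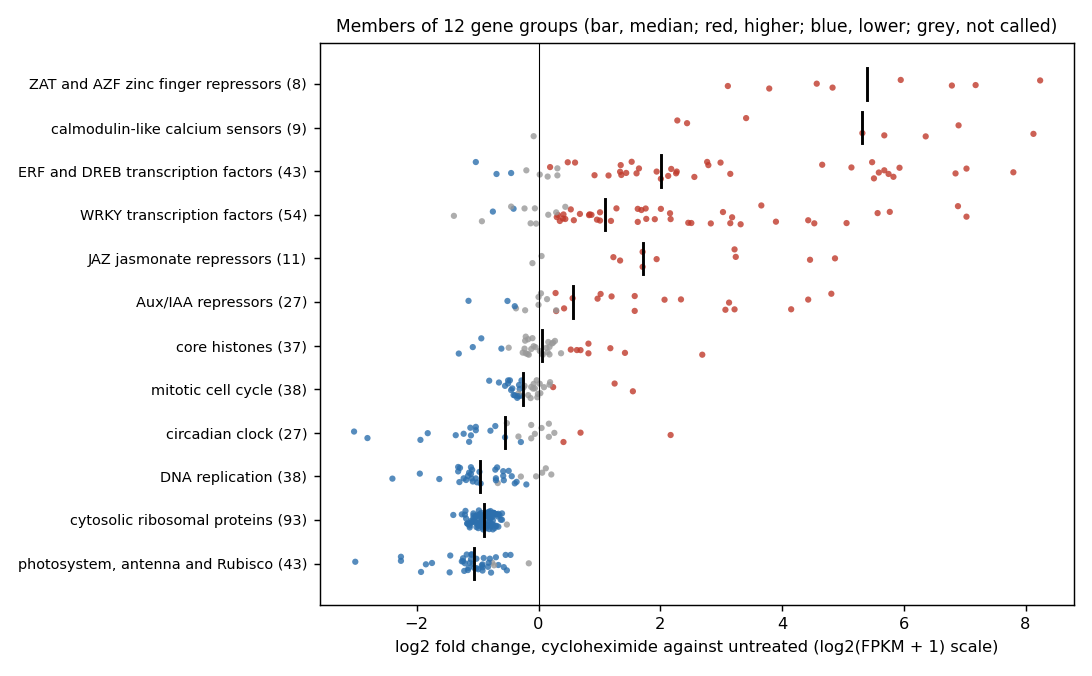
Log2 fold change with cycloheximide (horizontal axis) of each tested member of 12 gene groups, with numbers of members in parentheses, black bars for medians, and points in red for rises, blue for falls and grey for uncalled genes. The 93 ribosomal protein genes form a tight cluster from -1.40 to -0.52, whereas the 54 WRKY genes spread from -1.39 to 7.03.

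Most clock genes that differed were lower. Of 27 tested clock genes 15 fell (55.6%), 11 of them by a log2 fold change of at least 1, and 3 rose (11.1%). Over all loci 28.2% fell and 26.5% rose. LNK1, a coactivator of evening genes, had 13.9, 14.6 and 12.2 FPKM untreated and 0.912, 0.628 and 0.821 treated (-3.03 ± 0.12, adjusted p = 7.5e-07). GI (AT1G22770, chr1:8061799-8067716), the GIGANTEA protein that links the clock to flowering and light, had 37, 41.2 and 33.3 and 6.23, 3.5 and 3.9 FPKM (-2.81 ± 0.18, adjusted p = 7.81e-06), and the repressor PRR5 had 48, 46.7 and 42.5 and 18.4, 16.2 and 17.2 (-1.36 ± 0.07, adjusted p = 2.82e-06). BOA, a GARP factor and relative of LUX, went the other way with 12.5, 12.2 and 15.6 FPKM untreated and 56.9, 67.8 and 66.2 treated (2.17 ± 0.11, adjusted p = 2.52e-06). The labels give no time of day for the harvests.

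Of 31 tested shoot meristem regulators 9 rose (29.0%) and 12 fell (38.7%), beside 26.5% and 28.2% of all loci. WUS, which maintains stem cells, had 6.69, 7.75 and 6.18 FPKM untreated and 12, 12.2 and 12.3 treated (0.75 ± 0.10, adjusted p = 0.000496), and the receptor kinase CLV1 went from 23.4 ± 0.963 to 35.7 ± 1.9 FPKM (0.59 ± 0.07, adjusted p = 0.000172). STM, a KNOX homeodomain factor, fell from 148, 149 and 145 to 103, 84.2 and 72.4 FPKM (-0.78 ± 0.14, adjusted p = 0.0017). The groups of all 3 genes were apart, at less than a log2 fold change of 1. The GRAS factor HAM4 (1.49 ± 0.15) and the AP2-family DRNL (1.44 ± 0.12) rose, and FAS1 (-0.79 ± 0.10) and KNAT1 (-0.76 ± 0.12) fell. Other HAM genes, named after their values were seen, went both ways: HAM3 rose (0.75 ± 0.14), and HAM2 (-0.73 ± 0.10) and HAM1 (-0.50 ± 0.11) fell.

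Among the genes of floral meristem and organ identity 21 were tested, of which 7 fell (33.3%) and 2 rose (9.52%), beside 28.2% and 26.5% of all loci. The other 12 were not called, and no call reached a log2 fold change of 1. UFO and LFY rose by 0.75 ± 0.13 and 0.62 ± 0.15, and AGL6 (-0.76 ± 0.11) and AP2 (-0.49 ± 0.10) fell. The number of falls was 2 without untreated replicate 2 or cycloheximide replicate 2, 3 without untreated replicate 1 or cycloheximide replicate 3, and 4 without untreated replicate 3. In the flowering-time list 14 of 29 fell (48.3%) and 4 rose (13.8%), and 2 of the rises were far larger than the rest. Among the 28 with at least 1 FPKM in untreated tissue, which leave out TEM2, 14 fell and 3 rose. TEM2 (AT1G68840, chr1:25880323-25882222), a RAV-family repressor of the florigen gene FT, had 0.0994, 0.0914 and 0.218 FPKM untreated and 90.5, 104 and 133 treated (6.58 ± 0.15, adjusted p = 1e-07), and its relative TEM1 had 16.3, 15.2 and 20.8 and 156, 180.1 and 179 (3.24 ± 0.14, adjusted p = 9.84e-07). BOP1 rose from 7.12 ± 0.546 to 17.9 ± 1.12 FPKM (1.22 ± 0.10), and SPL15, a promoter of flowering, fell from 18.6 ± 0.754 to 7.91 ± 0.675 FPKM (-1.14 ± 0.10).

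Among genes that set organ boundaries and polarity more fell than rose. Of 20 tested boundary and initiation genes 10 fell and 4 rose (2 with the rescaling). The boundary factor CUC1 fell from 26.8 ± 2.91 to 11.3 ± 1.86 FPKM (-1.19 ± 0.12), LSH4 from 47.4 ± 6.02 to 21.4 ± 1.55 FPKM (-1.10 ± 0.11) and AIL7 fell too (-0.97 ± 0.08), and the kinase gene PID rose from 43.9 ± 0.959 to 115 ± 6.65 FPKM (1.37 ± 0.09). Of 20 polarity genes 12 fell and 2 rose; the abaxial factor FIL fell from 190.1 ± 22.3 to 88.6 ± 10.9 FPKM (-1.09 ± 0.12), ETT (-0.62 ± 0.11) and ARF4 (-0.67 ± 0.09) fell as well, while KAN3 rose by 1.28 ± 0.22. Among GRF and TCP growth regulators 13 of 31 fell (41.9%) and 9 rose (29.0%), beside 28.2% and 26.5% of all loci. Their median of -0.02 became 0.02 with median-ratio scaling. GRF1 (-1.06 ± 0.08) and TCP15 (-0.88 ± 0.08) fell, and GRF8 and TCP20 rose by 2.10 ± 0.13 and 1.43 ± 0.08.

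Markers of the tissue and of other cell types were examined beside these groups. All 6 shoot apical meristem genes were expressed in every library, TFL1 at 156, 157 and 136 FPKM untreated and 165, 144 and 117 treated (-0.08 ± 0.15, adjusted p = 0.669) and CLV3 at 17.5, 13.5 and 13.9 and 16.8, 11.5 and 13.9 (-0.09 ± 0.24, adjusted p = 0.761), and the 6 summed to 429.8 to 482 FPKM in the untreated libraries and 319 to 403 with cycloheximide; 2 rose and 2 fell. Epidermal genes fell in 4 of 5 cases, from PDF1 (-0.72 ± 0.15) and LTP1 (-1.33 ± 0.17) to FDH and CER5, and summed to 2409 to 2846 FPKM in the untreated libraries and 1172 to 1525 with cycloheximide. Of 8 vascular genes ATHB-8 (0.52 ± 0.12) and SUC2 (0.36 ± 0.10) rose, SUC2 not without untreated replicate 3 or cycloheximide replicate 3 or with the rescaling (adjusted p = 0.0569, 0.0608 and 0.2), and the sum was 80.9 to 82.9 FPKM in the untreated libraries and 87.3 to 97.9 with cycloheximide. Guard cell genes summed to 50.9 to 58.6 FPKM in the untreated libraries and 47.3 to 60 with cycloheximide, and FAMA (0.87 ± 0.37) was not called, except, among other settings, without replicate 1 of cycloheximide or of dexamethasone plus cycloheximide (adjusted p = 0.0289 and 0.0231). SCRM, the 1 guard cell gene called lower (-0.30 ± 0.08), was not called without cycloheximide replicate 2 or 3 (adjusted p = 0.0587 and 0.051). With the rescaling 2 guard cell genes and 1 vascular gene fell.

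Of 13 tapetum and pollen genes 11 were below the minimum level, 1 had no locus of its own and DEX1 was tested, with 24.9, 25.9 and 26.5 FPKM untreated and 21.9, 24 and 21.6 treated (-0.19 ± 0.06, adjusted p = 0.0324); it was not called without untreated replicate 2 or 3 or cycloheximide replicate 1 or 3 (adjusted p = 0.092, 0.087, 0.0752 and 0.0963) or with median-ratio scaling (0.102). Of 10 root genes 5 were tested, with CPC (1.26 ± 0.11) and SHR (0.83 ± 0.10), both also expressed in shoots, higher. SCR (38.1 ± 1.35 to 40.7 ± 2.58 FPKM), WOX5 (7.57 ± 4.6 to 7.71 ± 3.06 FPKM) and GL2 (5.23 ± 0.392 to 5.37 ± 0.626 FPKM) were expressed and not called. The root stem cell genes PLT1 and PLT2 and the root hair gene RHD6 were at 0 in all 6 libraries. Of 8 seed and embryo genes LEC1 and ABI3 were at 0 in all 6 libraries and 5 others had means of at most 0.0318 FPKM. The storage albumin gene AT2S1 (AT4G27140, chr4:13607329-13608031) stood alone with 2.05, 2.33 and 0.857 FPKM untreated and 97.8, 226 and 161 treated (5.85 ± 0.36, adjusted p = 5.88e-06).

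Loci of other kinds are set here beside the 26.5% higher and 28.2% lower of all tested loci. Of 26 tested loci annotated as microRNA genes 9 fell (34.6%) and 1 rose (3.85%). These values are those of precursor transcripts, not of mature microRNAs. The largest falls, named after their values were seen, were at MIR172b with 9.43, 25.6 and 19.3 FPKM untreated and 9.74, 5.23 and 4.9 treated (-1.28 ± 0.47, adjusted p = 0.0482), MIR171a (-1.12 ± 0.17), MIR160c (-1.09 ± 0.21) and MIR319a (-0.99 ± 0.18). At MIR172b cycloheximide replicate 1 lay within the untreated range. Of 119 long noncoding RNA genes 36 rose (30.3%) and 19 fell (16.0%), and of 91 transcribed pseudogenes 28 rose (30.8%) and 14 fell (15.4%). Of 555 loci with no reference gene 153 rose (27.6%) and 59 fell (10.6%), and of 227 loci antisense to a gene 67 rose (29.5%) and 27 fell (11.9%). Antisense values are uncertain, because the sources differ on whether strand was recorded.

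Genes with few exons rose more often. Among 16886 protein-coding genes with a locus of their own, 41.3% of the 2529 single-exon genes rose and 21.4% fell, while of the 2786 genes with over 10 exons 17.7% rose and 27.1% fell, and the share that rose declined through 31.9%, 26.5% and 22.6% for 2, 3 to 5 and 6 to 10 exons. Single-exon genes made up 15% of all tested genes, 22.9% of those that rose, 30.7% of those that rose by a log2 fold change of at least 1 and 40.6% of those that rose by at least 3. They made up 10.7% of those that fell. The median spliced length was 1767 bases for rises and 1589 for falls, with 1738 over all.

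Promoters of rising and falling genes also differed in known short motifs, counted on both strands of the 250 bases before the RefSeq gene start in TAIR10.1. Of 16885 promoters of tested genes 12.2% held the core of the W-box, TTGACC, the element bound by WRKY factors. The share was 17.3% in the 2077 genes that rose by at least 1 on the log2 scale, 22.1% in the 562 that rose by at least 3 and 9.12% in the 691 that fell by at least 1. CGCGTT, the core of an element of rapid wound and stress responses bound by calmodulin-regulated CAMTA factors, was held by 2.96% of tested promoters, 6.69% and 9.25% of the 2 sets of rises and 2.32% of the falls. For the palindromic heat shock element GAANNTTC the shares were 9.52%, 14.2%, 18.9% and 9.41%. The W-box core was in 14.8% of the 54 WRKY promoters. The heat shock element was in 15.4% of the 26 promoters of heat shock factors and chaperones.

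The site II element TGGGCC of growth gene promoters was less frequent in rises, with 17.4% of tested promoters, 8.33% of the rises of at least 1, 6.05% of those of at least 3, 18.5% of the falls of at least 1, 21.3% of all 5039 falls and 58.1% of the 93 ribosomal protein genes. The E2F element TTCCCGC was in 1.36% of tested promoters, 3.04% of the larger falls, 0.818% of the larger rises and 28.9% of the 38 replication genes. The telo-box AAACCCT was in 6.33% of tested promoters, 4% of the larger rises, 5.5% of the larger falls and 19.4% of ribosomal protein genes. The evening element AATATCT was in 44.4% of the 27 clock genes against 10.2% overall. Shares in the larger rises and in all tested promoters were near each other for the auxin response element TGTCTC (10.6% and 10.6%), the GCC-box core GCCGCC (both 1.93%), the G-box CACGTG (8.81% and 7.74%) and AACGGCT, the core of the mitosis-specific activator element (2.02% and 2.04%), which 23.7% of mitotic genes held. The auxin response element was in 29.6% of the 27 Aux/IAA promoters. These matches describe letters and were not tested for binding; no motif or its reverse complement lies within another.

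**Figure D5:**
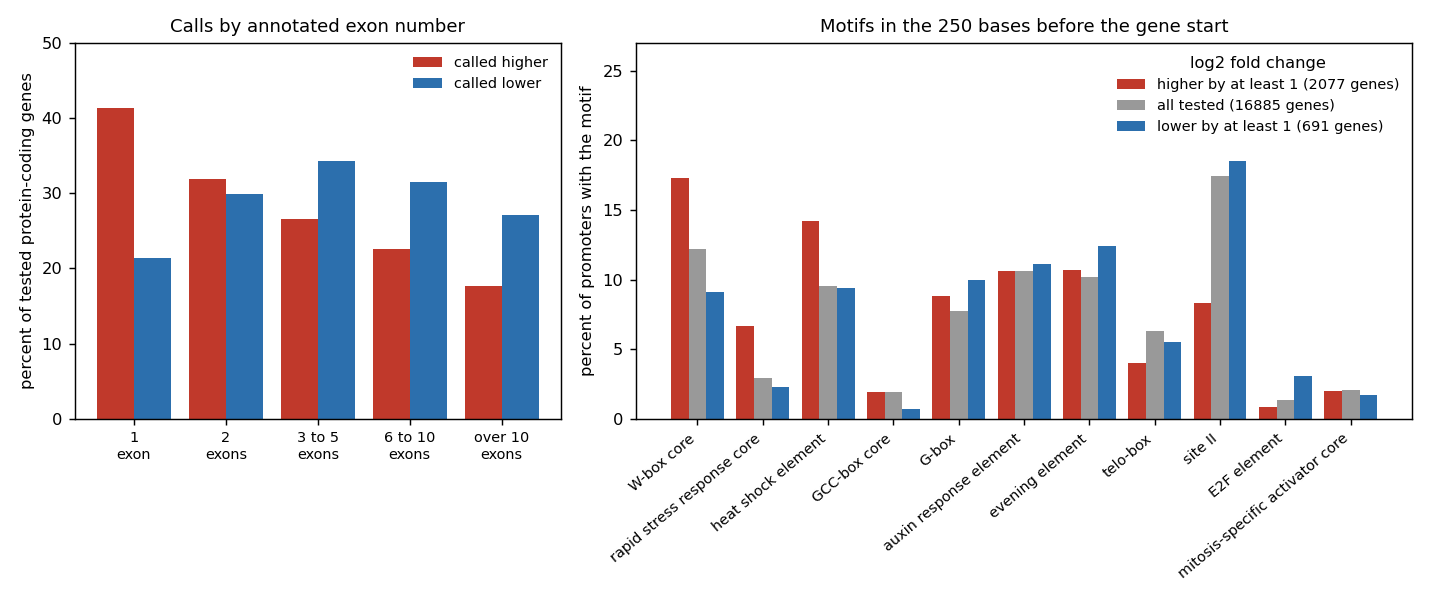
Left, percent of tested protein-coding genes called higher (red) or lower (blue) with cycloheximide, by annotated exon number. Right, percent of promoters of 250 bases that hold each motif, for genes that rose by at least 1 on the log2 scale (red), all tested genes (grey) and genes that fell by at least 1 (blue); the W-box core, rapid stress response core and heat shock element are more frequent in rises, and site II and the E2F element less.

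The promoters below show a motif, in capitals, at the gene with the largest change among those of its group that hold it. Each is the 250 bases before the gene start, 5′ to 3′ on the gene's strand, from the RefSeq TAIR10.1 sequence. That of WRKY33 (chr2:16107985-16108234, plus strand; log2 fold change 5.77 ± 0.41), a WRKY factor needed for resistance to necrotrophs, holds the W-box core on the opposite strand, starting 32 bases before the gene.
WRKY33: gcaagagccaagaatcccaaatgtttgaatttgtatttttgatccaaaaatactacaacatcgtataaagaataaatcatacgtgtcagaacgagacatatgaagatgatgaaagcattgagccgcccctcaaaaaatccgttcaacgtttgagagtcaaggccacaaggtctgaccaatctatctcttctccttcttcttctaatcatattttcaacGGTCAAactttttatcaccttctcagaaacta
PS2 (chr1:27466349-27466598, minus strand; log2 fold change 6.86 ± 0.15), a phosphatase gene known from phosphate starvation, is the rising gene with a symbol that changed most among those with the rapid stress response core, which starts 197 bases before it.
PS2: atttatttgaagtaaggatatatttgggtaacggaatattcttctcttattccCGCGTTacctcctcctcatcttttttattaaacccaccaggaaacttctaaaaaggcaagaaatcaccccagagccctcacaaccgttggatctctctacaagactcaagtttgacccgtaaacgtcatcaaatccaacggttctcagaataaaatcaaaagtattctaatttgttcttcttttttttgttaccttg
HSFA4A (chr4:10349903-10350152, minus strand; log2 fold change 3.31 ± 0.27) is the gene of a heat shock factor, with the heat shock element 173 bases before its start.
HSFA4A: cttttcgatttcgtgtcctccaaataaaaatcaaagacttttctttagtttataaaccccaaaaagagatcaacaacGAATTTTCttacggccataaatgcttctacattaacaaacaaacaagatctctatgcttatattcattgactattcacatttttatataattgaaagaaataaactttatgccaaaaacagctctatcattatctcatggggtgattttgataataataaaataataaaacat
AT4G25890 (chr4:13160566-13160815, minus strand; log2 fold change -1.21 ± 0.22) encodes a ribosomal stalk protein, and its site II element on the opposite strand starts 20 bases before the gene.
AT4G25890: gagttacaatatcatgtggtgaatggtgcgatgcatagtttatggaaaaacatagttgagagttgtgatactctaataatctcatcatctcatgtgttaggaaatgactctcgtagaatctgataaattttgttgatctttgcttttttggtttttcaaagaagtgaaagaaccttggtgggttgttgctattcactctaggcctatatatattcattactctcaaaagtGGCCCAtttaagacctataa
ORC2 (chr2:15758351-15758600, plus strand; log2 fold change -1.30 ± 0.13), a subunit of the replication origin complex, has the E2F element on the opposite strand 9 bases before its start.
ORC2: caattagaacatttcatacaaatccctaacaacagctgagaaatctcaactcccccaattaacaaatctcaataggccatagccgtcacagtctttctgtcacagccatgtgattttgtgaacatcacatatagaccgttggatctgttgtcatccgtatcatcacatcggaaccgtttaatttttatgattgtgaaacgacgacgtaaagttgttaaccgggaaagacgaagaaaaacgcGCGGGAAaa

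Values with dexamethasone plus cycloheximide are given here against the same untreated libraries, which both comparisons share. ZAT7 had 718 ± 155 FPKM (SD, n = 3) with both compounds, a log2 fold change of 9.14 ± 0.25 where cycloheximide alone gave 8.24 ± 0.25. JAZ1 had 5044 ± 526 FPKM (3.74 ± 0.22, and 3.22 ± 0.22 without dexamethasone), PCNA1 9.22 ± 0.401 FPKM (-2.64 ± 0.19 and -2.40 ± 0.19) and LHCB3 57.7 ± 4.72 FPKM (-2.09 ± 0.09 and -2.26 ± 0.09). TFL1, which cycloheximide alone left without a call (-0.08 ± 0.15), was -1.93 ± 0.15 with both compounds.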

How the data were processed

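RNA sequencing libraries from 3 untreated, 3 cycloheximide and 3 dexamethasone plus cycloheximide samples were compared; the groups come from the labels. TopHat, Cufflinks, Cuffdiff and the genome build TAIR10 are named, without versions, in the submitters' processing notes. The deposited values are FPKM per locus, normalised by the authors, so they are not counts, and depth could only be estimated in relative terms. Overlapping and antisense loci are uncertain: the kit in the labels keeps no strand, but the study's design describes strand-specific sequencing.

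Loci with status OK in all 9 libraries and a mean of at least 1 FPKM entered 1 linear model of log2(FPKM + 1) over all 9 libraries (limma 3.58.1, R 4.3.3), with group as its only term, a variance trend and 6 residual degrees of freedom. P-values were adjusted by Benjamini-Hochberg over all 19569 loci and called below 0.05; every adjusted p is from this two-sided test unless an alternative is named, and ± beside a log2 fold change is its standard error. With 3 libraries a group the p-values measure the spread between these libraries. The fit was tested on simulated data.

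Named are the 15 largest rises and falls whose groups do not overlap and the 5 most abundant of each, at single-gene loci with a primary RefSeq symbol, up to 4 called members per gene list with the smallest p, markers, members of families of at most 12, loci next to the minimum and, for promoters, the group member with the largest change that holds the motif in a window free of other genes; other names are said to be chosen after their values were seen. The members and lists were chosen with earlier results of these data known. Names, exons and promoters come from RefSeq TAIR10.1. Alternatives were the pseudocounts 0.1 and 5, other minimum levels, 2 rescalings, fits without the trend, on 6 libraries, with replicate as a block or on single-gene loci, and leaving out each library; counts over members with at least 1 FPKM in untreated tissue were added after the data were seen. Tables were handled with Python 3.11.15 and pandas 2.3.3.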

Additional observations from a re-analysis of the deposited data

How the results depend on the processing

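The counts of loci called, higher, lower and changed by at least 1 on the log2 scale stayed within 1.5 times their values under all alternatives, with 1 exception: with a pseudocount of 5, 479 loci fell by at least 1 in place of 841. Leaving out 1 library at a time gave 8680 to 10905 called loci, 4462 to 5240 rises, 4218 to 5738 falls, and 2219 to 2639 rises and 687 to 1062 falls of at least 1. Rescaling over loci of at least 300 bp gave 3828 rises and 7525 falls. Same-numbered libraries deviated together weakly across loci (r of 0.0391, 0.0319 and 0.108), so the numbers were not taken to pair the samples; with the replicate block 11573 loci were called with 9 libraries and 9976 with 6. Of 4052 values for 203 gene results under the alternatives, 3998 kept direction and side of the threshold, 49 lost the call, 5 gained one and none reversed. Of 1920 list counts 113 moved by over 1.5 times; the cause was not tested. Of 96 counts over members with at least 1 FPKM in untreated tissue, a setting chosen after seeing the data, 3 moved as much. Of 24 motif or single-exon shares among rises or falls, 15 left their binomial interval when only changes of at least 1 were counted. In short loci 1 read is worth many FPKM, which limits their precision.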
